A study of Mus musculus with 4 samples.

Results

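Far contacts between a pair of gene-dense intervals of mouse chromosome 1 were described from tiled Capture-C maps of E14 mouse embryonic stem cells (mESCs). The first interval lies around Rnf25 (mm9, chr1:74246401-74803200) and the second around Dnpep (chr1:75123201-75654400), and 320.0 kb of other sequence lies between them. All bin pairs with 1 bin of 6.4 kb in each interval were taken, which gave 7221 pairs of 155961 in the captured chromosome 1 region and of 930930 in the captured regions together. These pairs are called the rectangle below, after their shape in the contact map. The rule names coordinates and no contact value, although the intervals were picked with earlier results of these maps known. Of them, 7138 were measured in all 4 libraries. The remaining 83 share 1 bin of the Rnf25 interval (74700801 to 74707200), which the balancing had dropped in each library.

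There was 1 library per group, each from 1 clonal line. All cells came from a parental line with a double CTCF-site deletion, carried arrays of TetO and of LacO operators on chromosome 15, expressed TetR-tdTomato and LacI-eGFP, and had RAD21 tagged on both alleles with HaloTag-FKBP. Line 1B1 carried 3xCTCF sites beside the arrays and had lost the resistance promoters. The 3xCTCF sites were missing from both other lines, of which 1A2 had also lost the resistance promoters and 1F4 had kept them. In the fourth library 1B1 cells had received 500 nM dTAG-13 for 2 h, which sends tagged RAD21 to degradation. The arrays do not lie on chromosome 1, and the 3 untreated libraries served there as a yardstick for differences between clones and library preparations. Protein levels of RAD21 and the expression of the genes named below were not measured in these maps.

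Capture-C joins DNA ends that lie close in the nucleus, so that the number of read pairs linking a pair of bins reports how often they were near each other. Contact falls steeply with genomic distance, and each value is therefore divided by the mean at the same separation in the region (observed/expected), so that 1 stands for an average pair. Cohesin, of which RAD21 is a subunit, is a ring that draws chromatin into loops until it meets CTCF on the DNA. Apart from such loops, gene-rich active stretches are known to meet other active stretches over long distances, a pattern known as compartments, which does not need cohesin. Both intervals are rich in broadly used genes mixed with genes of specialised tissues.

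The Rnf25 interval has 87 bins and 19 starts of protein-coding genes in 15 bins, or 1 start per 29.3 kb, with a mean GC content of 45.5%. The Dnpep interval has 83 bins and 23 coding starts in 19 bins, or 1 per 23.1 kb, with 49.2% GC. Over the whole captured region of 558 bins (chr1:72083201-75654400) there was 1 coding start per 54.9 kb. A bin with a coding start is called a promoter bin. The Dnpep interval runs to the end of the captured region, and pairs of the rectangle lie 326.4 to 1402 kb apart.

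Promoter sequences are shown for the bins on which the results below turn, from the NCBIM37 genome and GENCODE vM1 gene starts. They are the bases between the divergent starts of Zfp142 and Bcs1l (chr1:74634821-74634862, plus strand) and of Rnf25 and Stk36 (chr1:74647972-74648018, plus strand), and the 250 bases upstream of Dnpep (chr1:75314213-75314462, minus strand) and of Ctdsp1 (chr1:74437833-74438082, plus strand). Zfp142 encodes a zinc finger protein, Bcs1l a chaperone for assembly of respiratory complex III, Rnf25 a ubiquitin ligase, Stk36 a kinase, Dnpep an aspartyl aminopeptidase and Ctdsp1 a phosphatase of the RNA polymerase II tail. Ctdsp1 was added after its value was seen. None of the printed bases lies in an annotated exon. Capitals mark matches, on either strand, to the GC box (GGGCGG), which Sp1-type factors recognise, and to CCGGAA, the core that ETS-type factors recognise.
Zfp142-Bcs1l: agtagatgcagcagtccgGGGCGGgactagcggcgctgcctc
Rnf25-Stk36: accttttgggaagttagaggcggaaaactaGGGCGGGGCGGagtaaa
Dnpep: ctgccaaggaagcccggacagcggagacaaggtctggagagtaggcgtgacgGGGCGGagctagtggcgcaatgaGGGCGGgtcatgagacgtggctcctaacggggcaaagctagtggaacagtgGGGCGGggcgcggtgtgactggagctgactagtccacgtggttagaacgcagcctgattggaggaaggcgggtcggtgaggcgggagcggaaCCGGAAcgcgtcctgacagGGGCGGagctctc
Ctdsp1: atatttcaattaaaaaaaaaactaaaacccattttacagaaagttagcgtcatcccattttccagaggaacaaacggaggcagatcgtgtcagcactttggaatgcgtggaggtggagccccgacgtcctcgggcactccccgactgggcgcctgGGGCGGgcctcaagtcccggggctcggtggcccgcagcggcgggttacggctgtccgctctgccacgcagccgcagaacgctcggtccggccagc
The Dnpep window holds 4 GC boxes, 1 CCGGAA and 22 CpG dinucleotides, where the median of the 1238 coding genes of chromosome 1 is 9 CpG in a window of this length. The Ctdsp1 window holds 1 GC box and 22 CpG. The short stretch between Rnf25 and Stk36 holds 2 overlapping GC boxes and that between Zfp142 and Bcs1l holds 1. A GC box is found in 41.8% of all 250-base upstream windows of chromosome 1, in 20.0% of windows as short as the Rnf25-Stk36 stretch and in 17.5% of those as short as the Zfp142-Bcs1l stretch. CCGGAA is found in 12.3% of the 250-base windows. The CTCF core motif was absent, on both strands, upstream of all 19 starts of the Rnf25 interval and all 23 of the Dnpep interval, and 0.565% of all such windows hold it. A GC box was found upstream of 11 of 19 and 11 of 23 starts.

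The depth recovered from the maps was 3214144 to 4089968 read pairs per library, of which 51.0 to 51.9% fell in the chromosome 1 region. The rectangle held 14800, 16577 and 17703 read pairs in 1A2, 1F4 and 1B1, and 18822 after degradation of cohesin. These were 0.898%, 0.788%, 1.06% and 1.02% of the chromosome 1 reads. Single bin pairs were thinly covered, with a median of 1 or 2 reads and 16.4 to 25.2% of pairs at 0 reads, so that values below are means over windows, tiles, bins or classes of pairs. Where 4 values stand without names, they follow the order 1A2, 1F4, 1B1, treated 1B1. Errors written as ± are Poisson errors of these reads and cover counting error only. With 1 library per group no difference has a replicate check and no test across replicates was possible.

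In the 3 untreated libraries the mean contact of the intervals was below the mean of pairs at their separations, and their median tile was near the middle of the other tiles. Mean observed/expected was 0.754 ± 0.0078 in 1A2, 0.705 ± 0.0069 in 1F4 and 0.780 ± 0.0073 in 1B1, a mean of 0.746 with an SD of 0.0379 over these libraries. After cohesin degradation it was 1.13 ± 0.0099, above all untreated libraries and above 1. The log2 ratio was 0.54 ± 0.02 against 1B1, 0.59 ± 0.02 against 1A2 and 0.68 ± 0.02 against 1F4. Between untreated libraries the ratios were 0.05 ± 0.02 for 1B1 over 1A2, 0.15 ± 0.02 for 1B1 over 1F4 and -0.10 ± 0.02 for 1F4 over 1A2. Among the other tiles of 32 by 32 kb at these separations, whose medians were 0.790, 0.781, 0.808 and 0.893, the median tile of the rectangle (0.747, 0.690, 0.766 and 1.09) stood at the percentiles 46.7, 43.2, 46.8 and 62.2. Other tiles were widely spread, up to 7.07, 8.48, 6.55 and 5.00, where those of the rectangle reached 1.70, 1.44, 1.67 and 2.30. The untreated spread of the mean was several times its counting error, and smaller than each difference from the treated library.

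A rectangle of the same shape and separations at the opposite end of the captured region gave 0.825, 0.814 and 0.846 in the untreated libraries and 0.861 ± 0.0093 after degradation, a log2 ratio of 0.03 ± 0.02 against 1B1. All other pairs at these separations gave 1.03, 1.03 and 1.02 and, after degradation, 0.985 ± 0.0032. The difference between 1B1 and its treated counterpart was therefore smaller in both comparison sets than in the rectangle when all separations were pooled.

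**Figure D1:**
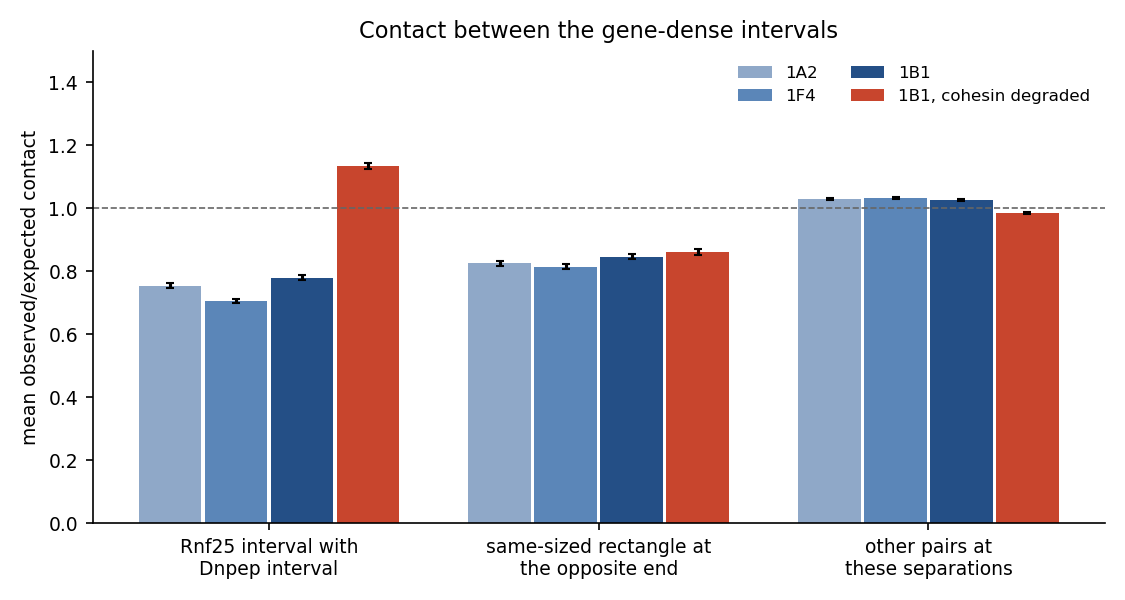
Mean observed/expected contact (no unit) between the Rnf25 and Dnpep intervals, in a rectangle of the same shape at the opposite end of the captured region and in other pairs at the same separations. Bars are single libraries, error bars are Poisson counting errors and the dashed line marks 1. The treated library reaches 1.13 between the intervals, where the untreated libraries lie between 0.705 and 0.780.

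Observed/expected is a relative value, and the signal before this division showed a different picture. The balanced signal of the rectangle averaged 10.6, 9.30 and 12.5 in 1A2, 1F4 and 1B1, and 11.6 after degradation, 0.926 times that of 1B1 and within the range of the untreated lines, with log2 ratios of 0.13 against 1A2 and 0.32 against 1F4. Elsewhere at these separations it fell from 19.0 in 1B1 to 12.02, or 0.634 times, and in the rectangle at the opposite end it fell to 0.689 times. The rectangle thus nearly kept its balanced signal while the means of both comparison sets fell. In reads, its share of all reads at these separations was 6.20%, 5.91% and 6.45% in 1A2, 1F4 and 1B1, and 9.72% in the treated library.

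Over the pooled rectangle the difference from 1B1 was larger in bands of larger separation, but the bands hold different bins. In the nearest band 873 of 876 measured pairs came from the last 40 bins of the Rnf25 interval, and in the farthest 882 of 903 came from its first 36. Within the rectangle, pairs 326.4 to 588.8 kb apart had 0.924 ± 0.015 in 1B1 and 1.02 ± 0.02 after degradation (log2 ratio 0.15 ± 0.04). At 595.2 to 864.0 kb the values were 0.827 and 1.11 (0.42 ± 0.03), at 870.4 to 1132.8 kb 0.716 and 1.16 (0.70 ± 0.03) and at 1139.2 to 1401.6 kb 0.688 and 1.24 (0.85 ± 0.07). From the nearest band to the farthest, 1A2 had 0.866, 0.792, 0.685 and 0.734 and 1F4 had 0.871, 0.745, 0.631 and 0.645, both lowest in the third band, whereas the treated library rose throughout. Against 1A2 the log2 ratios were 0.24, 0.49, 0.76 and 0.75, level over the last pair of bands. In balanced signal the nearest band fell to 0.678 times that of 1B1 and the farthest rose to 1.41 times. The rectangle at the opposite end showed no such order, with log2 ratios of 0.29 ± 0.04, -0.15 ± 0.03, -0.03 ± 0.04 and 0.45 ± 0.08 from the nearest band to the farthest. In the nearest band its ratio was above that of the rectangle between the intervals. Its balanced signal was 0.755, 0.597, 0.6996 and 1.07 times that of 1B1 in these bands, so that its farthest band also stood higher in the treated library.

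**Figure D2:**
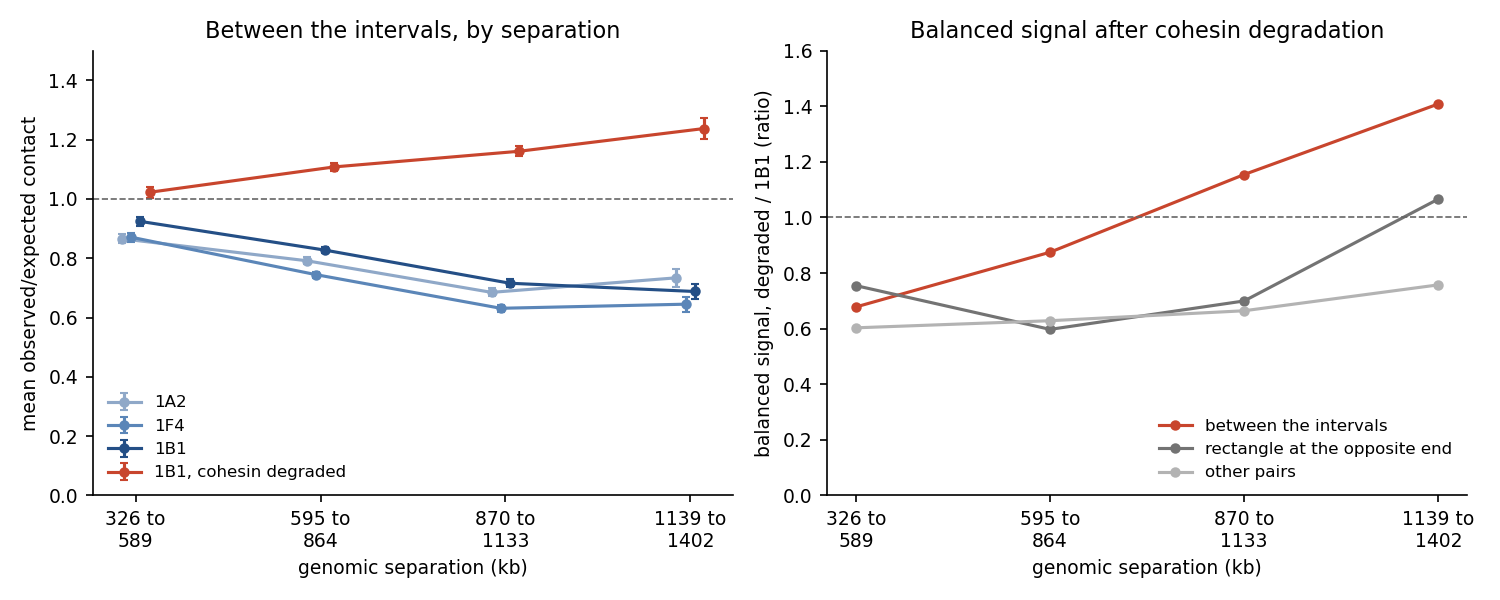
Left, mean observed/expected contact between the intervals in 4 bands of genomic separation (kb), with counting errors, where the treated library rises from 1.02 to 1.24 and 1B1 falls from 0.924 to 0.688. Right, ratio of the balanced signal after cohesin degradation to that of 1B1 in the same bands, which rises from 0.678 to 1.41 between the intervals and stays at 0.757 or below in other pairs.

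Tiles of 5 by 5 bins (32 by 32 kb) with at least 20 reads in the compared pair of libraries together showed how widely the difference was spread. Of 272 tiles in the rectangle, 108 had at least 1.5-fold higher observed/expected after degradation than in 1B1 and 2 had 1.5-fold lower, whereas 17.8% of all 2724 tiles at these separations were past this fold upward and 15.2% downward. The median log2 ratio was 0.45 over the rectangle and -0.05 over the other tiles. Against 1A2, 121 tiles were higher and 1 lower (20.2% and 15.4% of all tiles), and against 1F4, 139 were higher and 0 lower (22.8% and 14.6%). Between untreated lines the counts in the rectangle were lower. 1B1 exceeded 1A2 in 15 of 270 tiles and fell below it in 7 (5.74% and 4.31% of all tiles), and 1B1 exceeded 1F4 in 27 of 270 and fell below in 5 (6.89% and 3.03%). 1F4 exceeded 1A2 in 8 of 269 tiles and fell below it in 23 (4.78% and 6.47%). The treated comparisons share the treated library and are not independent of each other.

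**Figure D3:**
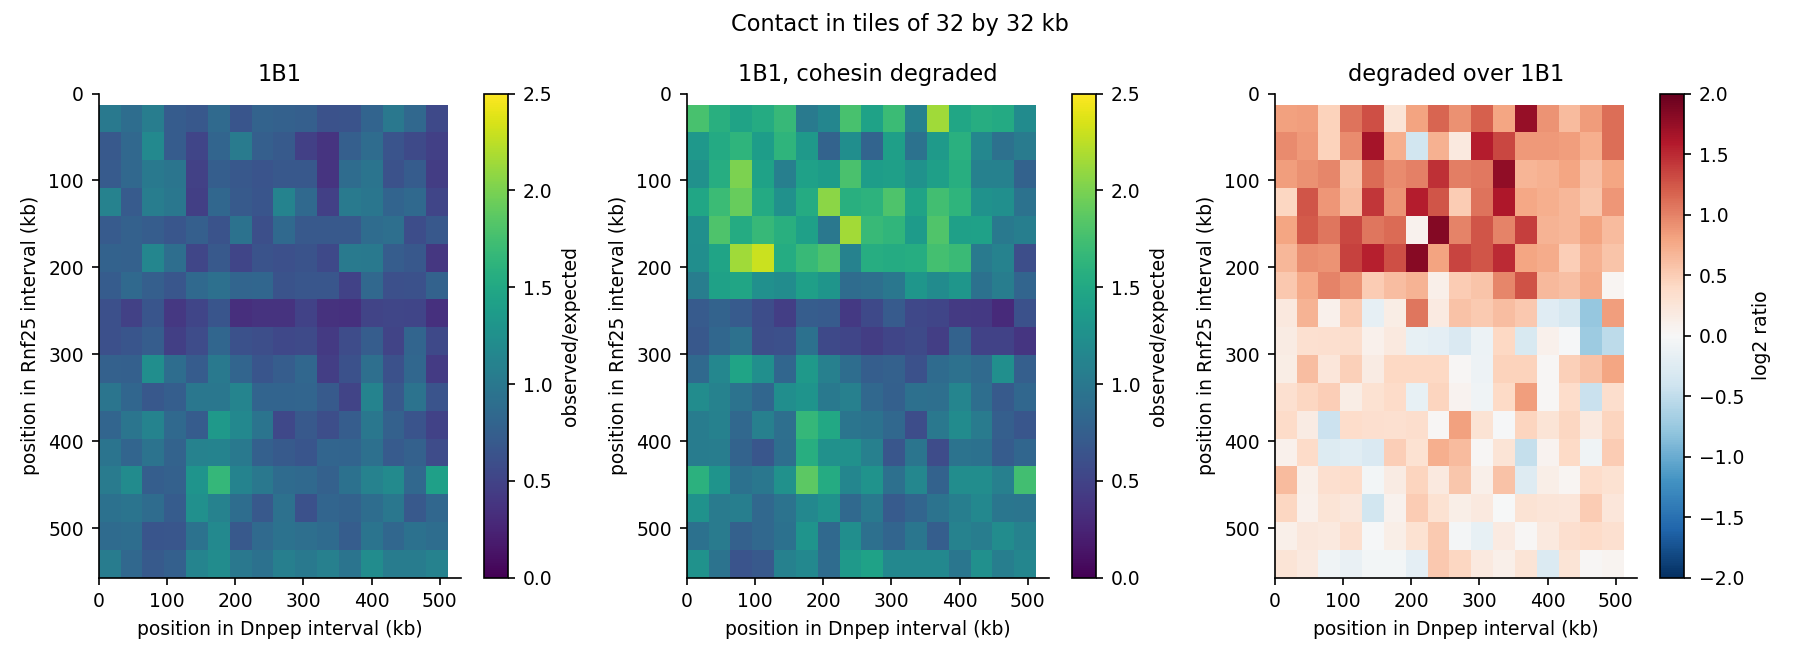
Mean observed/expected contact in tiles of 32 by 32 kb in 1B1 (left) and 1B1 with cohesin degraded (middle), and the log2 ratio between them (right), by position in the Rnf25 interval (vertical, kb) and in the Dnpep interval (horizontal, kb). The red block at the top of the right panel is the Arpc2 to Vil1 stretch of 230.4 kb, in which 94 of 112 tiles are past 1.5-fold upward, against 5 of 32 in the next stretch and 9 of 128 in the last. The edges of the stretches were set on this same difference, so these counts describe the choice.

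The difference varied along the Rnf25 interval. Over 3 parts of 29 bins each, the log2 ratio of the treated library to 1B1 was 0.93 ± 0.04 from Arpc2 to Slc11a1, 0.44 ± 0.03 from Ctdsp1 to Plcd4 and 0.20 ± 0.03 from Zfp142 to Prkag3. From the profile itself, a stretch of 36 bins from before Arpc2 into Vil1 (chr1:74246401-74476800) was then delimited where the difference dropped. Its edges were set on these values, so the counts of bins inside and outside are a description of the choice. Each bin of this stretch had a higher mean with the Dnpep interval in the treated library than in every untreated library, and 35 of 36 bins were at least 1.5-fold above 1B1. None of the other 50 measured bins of the Rnf25 interval was past this fold. As a background, 4.89% of 552 bins of the region were past it upward when averaged over all their pairs at these separations. Such means take in all partners of a bin, not 1 interval, and are therefore not like for like. Mean observed/expected of the stretch with the Dnpep interval was 0.731 ± 0.0135, 0.682 ± 0.0120 and 0.751 ± 0.0125 in 1A2, 1F4 and 1B1, and 1.42 ± 0.0187 after degradation, on 4099, 4402, 4939 and 7544 reads. The log2 ratio against 1B1 was 0.91 ± 0.03. Unlike the rectangle as a whole, this stretch also rose in balanced signal, to 1.36 times that of 1B1.

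The profile fell sharply at the end of this stretch. The last bin of it (74470401 to 74476800, inside Vil1) had 1.27 in the treated library and 0.72 in 1B1, and the next bin (74476801 to 74483200), which holds the ends of Vil1 and Usp37, had 0.73 and 0.60. Villin, the product of Vil1, bundles actin in intestinal microvilli, and Usp37 encodes a deubiquitinase. The 11 bins from there to the bin before the start of Rqcd1 (Cnot9) hold no coding start, have 39.1% GC, and had the weakest contact, with 0.504, 0.440 and 0.537 in 1A2, 1F4 and 1B1 and 0.601 ± 0.0185 after degradation. The remaining 40 bins, from Rqcd1 to Prkag3, had 0.845, 0.802, 0.876 and 1.02 ± 0.0124, a log2 ratio of 0.23 ± 0.02 against 1B1. Their balanced signal was 0.745 times that of 1B1, with log2 ratios of -0.42 against 1B1, -0.19 against 1A2 and -0.035 against 1F4.

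At matched separations the 3 equal parts, cut by number of bins alone, had log2 ratios of 0.93 ± 0.07, 0.43 ± 0.04 and 0.23 ± 0.04 at 595.2 to 864.0 kb, and of 0.96 ± 0.05, 0.46 ± 0.05 and 0.24 ± 0.11 at 870.4 to 1132.8 kb. The stretches, chosen on this profile, are given for description. At 870.4 to 1132.8 kb the log2 ratio of the treated library to 1B1 was 0.94 ± 0.04 for the Arpc2 to Vil1 stretch, 0.08 ± 0.10 for the 11 bins of Usp37 and 0.29 ± 0.07 for Rqcd1 to Prkag3. At 595.2 to 864.0 kb it was 0.92 ± 0.05, 0.25 ± 0.08 and 0.24 ± 0.03. At 870.4 to 1132.8 kb the 11 bins of Usp37 had 0.24 ± 0.11 against 1A2 and 0.42 ± 0.11 against 1F4. Rqcd1 to Prkag3 had 0.24 ± 0.07 and 0.46 ± 0.07 there. Within the Arpc2 to Vil1 stretch the ratio was 0.92, 0.94 and 0.86 against 1B1 in the 3 bands it spans, 1.02, 1.04 and 0.76 against 1A2, and 1.09, 1.10 and 0.94 against 1F4, lowest each time in the farthest band.

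The higher observed/expected contact of the Arpc2 to Vil1 stretch was not limited to the Dnpep interval. With the sequence between the intervals, which holds the developmental genes Wnt6, Wnt10a and Ihh, it gave 0.652 in 1B1 and 1.12 ± 0.0170 after degradation at the same separations (log2 ratio 0.78 ± 0.03). With sequence on its other side, upstream of the Rnf25 interval, it gave 0.604 and 0.485 ± 0.0075 (-0.32 ± 0.03). In balanced signal the stretch had 1.06 times the value of 1B1 with the sequence between the intervals, below the 1.36 times with the Dnpep interval. With the upstream side it had 0.529 times. The Rqcd1 to Prkag3 stretch gave 0.806 and 0.862 with the sequence between the intervals (0.10 ± 0.04) and 0.599 and 0.552 with the upstream side (-0.12 ± 0.03). Its ratio with the sequence between the intervals was 0.19 ± 0.04 against 1A2 and 0.17 ± 0.04 against 1F4. Against 1B1 the 11 bins of Usp37 had 0.03 ± 0.07 with the sequence between the intervals and -0.91 ± 0.06 with the upstream side.

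Along the Dnpep interval all bins differed in the same direction, by varying amounts. The treated library was above every untreated library in all 83 bins, where 47.6% of bins of the region were so over all their pairs at these separations, and in 79 of 86 bins of the Rnf25 interval. Log2 ratios against 1B1 ranged from 0.16 to 1.04 over the Dnpep bins with a median of 0.54, and from -0.31 to 1.32 over the Rnf25 bins with a median of 0.42. Of the Dnpep bins, 35 of 83 were at least 1.5-fold higher than in 1B1, beside 4.89% of the bins of the region over all their pairs at these separations. Both shares of the region average over all partners of a bin, not over 1 interval, and are therefore not like for like. A bin's profile value is its mean with the whole opposite interval, so that neighbouring values rest on the same partner bins.

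**Figure D4:**
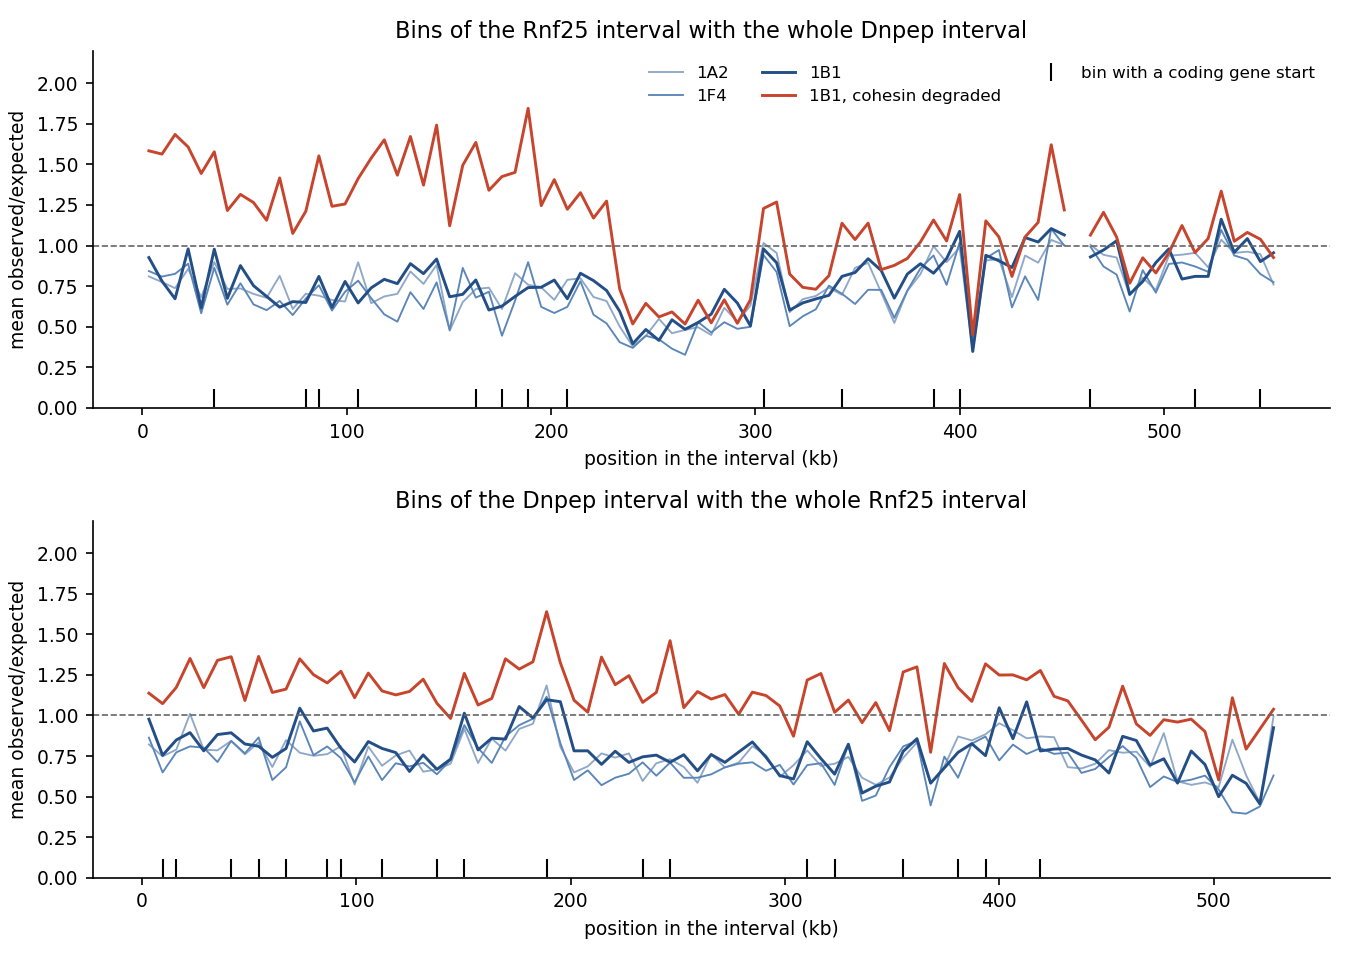
Mean observed/expected contact of each 6.4 kb bin with the whole opposite interval, by position (kb) in the Rnf25 interval (top) and the Dnpep interval (bottom), in 4 libraries. Ticks mark bins with a coding gene start, the dashed line marks 1 and the gap in the top panel is the bin left out of the balancing. In the top panel the treated library leaves the untreated ones over the first 230.4 kb, and in the bottom panel it lies above them throughout.

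In the Rnf25 interval the profiles of the untreated libraries resembled each other more than they resembled the treated profile, and in the Dnpep interval the values were alike. Over 86 bins of the Rnf25 interval Pearson's r was 0.89 between 1A2 and 1F4 (Spearman's rho 0.89), 0.84 (0.82) for 1A2 with 1B1 and 0.81 (0.79) for 1F4 with 1B1. With the treated profile it was 0.47 (0.36) for 1A2, 0.48 (0.40) for 1F4 and 0.43 (0.31) for 1B1. Over 83 bins of the Dnpep interval the untreated values were 0.65 (0.63), 0.73 (0.70) and 0.77 (0.75), and 0.62 (0.58), 0.67 (0.63) and 0.64 (0.59) for 1A2, 1F4 and 1B1 with the treated library. In the Rnf25 interval the treated profile followed GC content (r = 0.48, rho = 0.44) where the untreated profiles did so weakly (r of 0.12 to 0.14), and in the Dnpep interval r was -0.13 to 0.12 in the 4 libraries. The log2 ratio of the treated library to 1B1 went with GC content in both intervals, with r = 0.45 (rho = 0.42) and r = 0.29 (rho = 0.33). These correlations describe neighbouring bins that share libraries and base composition and are not tests. The number of CTCF core motifs per bin had r of 0.18, 0.18, 0.15 and 0.07 in the Rnf25 interval and between -0.15 and -0.05 in the Dnpep interval in the 4 libraries. The intervals hold only 4 and 9 such motifs, so these values rest on few bins and say little about CTCF.

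Among the bins of the Dnpep interval, the Dnpep promoter bin (75308801 to 75315200) had the highest contact with the Rnf25 interval. Its observed/expected was 1.19, 1.12 and 1.10 ± 0.06 in 1A2, 1F4 and 1B1, and 1.64 ± 0.09 after degradation (412 reads, log2 ratio 0.58 ± 0.11). The adjoining bin inside Dnpep followed with 0.95, 0.98, 0.98 and 1.33, and the bin beyond it, outside genes, had 0.92, 0.94, 1.06 and 1.29. The bin with the start of Resp18, an endocrine gene, had 0.92, 0.94, 1.01 and 1.26, and a bin inside Fam134a (Retreg2, an endoplasmic reticulum protein) had 1.01, 0.81, 0.89 and 1.35. The lowest were bins at the far end of the region, without an annotated coding gene, and a bin inside Obsl1, with 0.58, 0.45, 0.58 and 0.77.

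In the Rnf25 interval the highest bins by the mean of 1A2 and 1F4 lay at its near end. The bin of Rnf25 and Stk36 (74643201 to 74649600) had 0.99, 1.02 and 1.09 ± 0.05 in 1A2, 1F4 and 1B1, and 1.31 ± 0.06 after degradation (551 reads, log2 ratio 0.27 ± 0.09). A bin inside Cyp27a1, which encodes a sterol hydroxylase, had 1.04, 1.10, 1.16 and 1.34, and a bin between genes (74688001 to 74694400) had 1.03, 1.10, 1.10 and 1.62. Its neighbour (74694401 to 74700800) had 1.00, 1.00, 1.07 and 1.22. The Ttll4 bin, with the start of a gene for a tubulin-modifying enzyme, had 1.00, 0.99, 0.93 and 1.06. Directly beside the Rnf25 and Stk36 promoter bin, the next bin inside Stk36 was among the lowest, with 0.35, 0.43, 0.35 and 0.45. The other lowest bins lay inside Usp37.

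Promoter bins met each other more often than bins without promoters. Over 285 pairs with a promoter in both bins, observed/expected was 1.01 ± 0.036, 0.904 ± 0.031 and 0.947 ± 0.032 in 1A2, 1F4 and 1B1, and 1.58 ± 0.049 after degradation. Over 2309 pairs with a promoter in 1 bin it was 0.775, 0.747, 0.781 and 1.20, and over 4544 pairs with a promoter in neither it was 0.727, 0.672, 0.769 and 1.07. Pooled over separations, all libraries had the same order of the classes. At 326.4 to 588.8 kb, pairs with 1 promoter (0.840, 0.834, 0.885 and 0.979) lay below pairs with none (0.873, 0.880, 0.944 and 1.05). In 1B1 this also held at 595.2 to 864.0 kb (0.789 and 0.840). Only the pooled 1B1 values for 1 promoter and none (0.781 and 0.769) differed by no more than their combined counting error. At 595.2 to 864.0 kb the errors were 0.016 and 0.014, smaller than the difference.

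Pooled over separations, the log2 ratio of pairs with both promoters to pairs with none was 0.48 ± 0.06, 0.43 ± 0.05 and 0.30 ± 0.05 in 1A2, 1F4 and 1B1, and 0.56 ± 0.05 after degradation. It was 0.26 ± 0.07 higher after degradation than in 1B1, but 0.08 ± 0.07 higher than in 1A2 and 0.13 ± 0.07 higher than in 1F4, where untreated lines differed by up to 0.18 (1B1 minus 1A2, -0.18 ± 0.08). The size of the preference depended on the processing, with 0.93, 0.95, 0.78 and 0.98 from reads before balancing, and 0.25, 0.38, 0.17 and 0.40 with promoter bins widened by 1 bin on each side, where 1F4 and the treated library were close. A gain of promoter preference upon degradation was thus not separable from the spread of the untreated lines. The preference also differed by separation. At 326.4 to 588.8 kb promoter pairs had 0.975, 1.04, 1.02 and 1.10 ± 0.06, and pairs without promoters 0.873, 0.880, 0.944 and 1.05 ± 0.03. At 870.4 to 1132.8 kb promoter pairs had 0.952, 0.773, 0.891 and 1.79 ± 0.10, and pairs without promoters 0.646, 0.591, 0.692 and 1.06 ± 0.02. The excess of promoter pairs over what each promoter bin showed with bins lacking one, on the log2 scale, was 0.28 ± 0.07, 0.11 ± 0.07 and 0.26 ± 0.07 in 1A2, 1F4 and 1B1, and 0.23 ± 0.06 after degradation. Pairs without promoters also had higher contact after degradation, with a log2 ratio of 0.48 ± 0.03 against 1B1, beside 0.74 ± 0.07 for promoter pairs. In balanced signal, promoter pairs had 1.02 times the value of 1B1 and pairs without promoters 0.897 times.

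Promoter pairs elsewhere at these separations, 351 in number, had 1.11, 1.04, 1.15 and 1.48 ± 0.04. In balanced signal they went the other way, from 29.6 in 1B1 to 23.2 after degradation, or 0.783 times. The log2 ratios of balanced signal were -0.35 against 1B1, -0.19 against 1A2 and -0.002 against 1F4. Elsewhere the log2 ratio of promoter pairs to pairs without promoters was 0.08 ± 0.04, -0.03 ± 0.03, 0.14 ± 0.03 and 0.58 ± 0.03 in the 4 libraries. The preference in the rectangle exceeded that elsewhere by 0.40 ± 0.07 in 1A2, 0.46 ± 0.06 in 1F4 and 0.16 ± 0.06 in 1B1, and differed from it by -0.02 ± 0.06 after degradation. Set against pairs with a promoter in 1 bin in place of none, the rectangle differed from elsewhere by 0.04 ± 0.07, 0.04 ± 0.06, -0.10 ± 0.06 and -0.23 ± 0.06, so that the excess depended on the class used for reference.

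**Figure D5:**
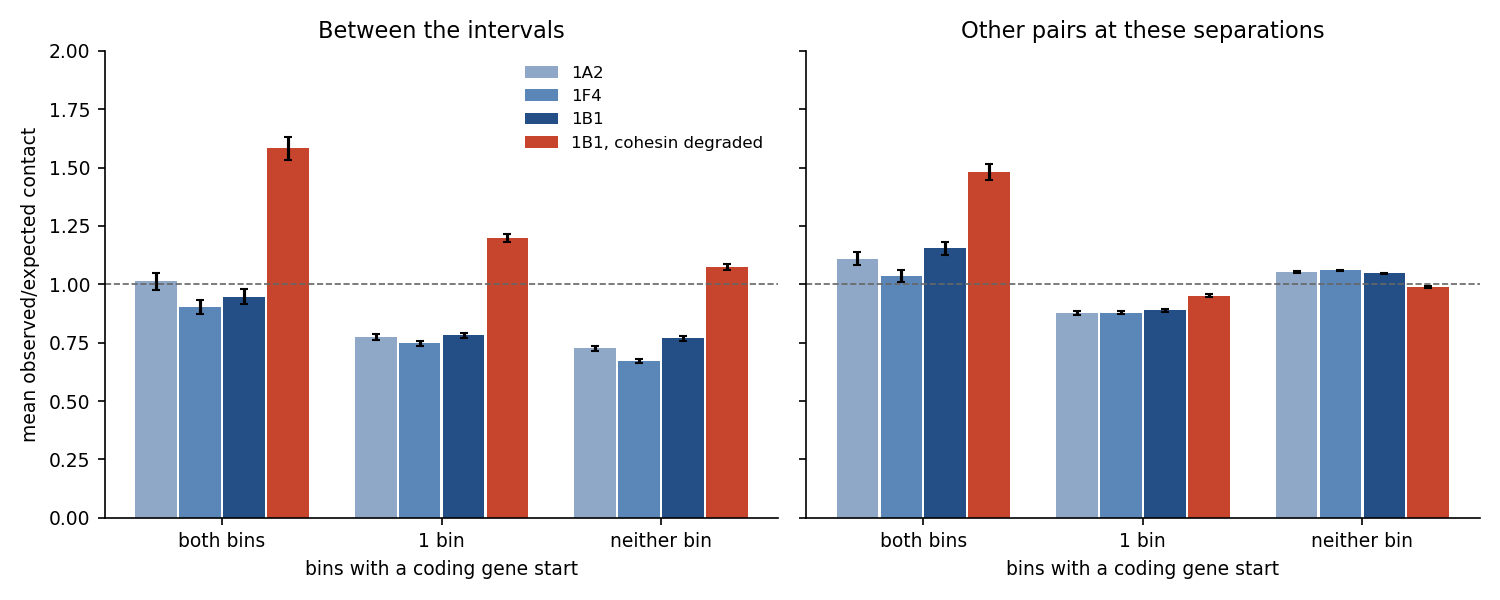
Mean observed/expected contact of bin pairs with a coding gene start in both bins, in 1 bin or in neither, between the intervals (left) and in other pairs at the same separations (right). Bars are single libraries with counting errors. Between the intervals promoter pairs go from 0.947 in 1B1 to 1.58 after cohesin degradation, and elsewhere from 1.15 to 1.48. In balanced signal, not shown, the treated value is 1.02 times that of 1B1 between the intervals and 0.783 times elsewhere.

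The promoter values differed between the stretches of the Rnf25 interval. For the Arpc2 to Vil1 stretch, 152 promoter pairs had 0.971, 0.828, 0.895 and 1.90 ± 0.08, on 372, 373, 409 and 660 reads, and pairs without promoters had 0.696, 0.647, 0.736 and 1.35. For Rqcd1 to Prkag3, 133 promoter pairs had 1.06, 0.990, 1.01 and 1.22 ± 0.05, and pairs without promoters had 0.833, 0.782, 0.877 and 1.003. The log2 ratio of promoter pairs to pairs without was 0.48 ± 0.09, 0.36 ± 0.09, 0.28 ± 0.08 and 0.50 ± 0.07 in the first stretch, and 0.35 ± 0.07, 0.34 ± 0.06, 0.20 ± 0.06 and 0.28 ± 0.07 in the second. Against 1B1 the treated library differed by 0.22 ± 0.11 and 0.08 ± 0.09. The treated value was close to that of 1A2 in the first stretch and below those of 1A2 and 1F4 in the second.

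All 15 promoter bins of the Rnf25 interval and all 19 of the Dnpep interval had a higher mean with the opposite interval after degradation than in 1B1, as did 64 of 71 and 64 of 64 bins without a promoter, a share close to that of the promoter bins. The log2 ratios of promoter bins were 0.20 to 1.32 in the Rnf25 interval and 0.31 to 1.04 in the Dnpep interval, with medians of 0.69 and 0.60, where bins without a promoter had medians of 0.39 and 0.49. The largest value was at the Ctdsp1 bin, with 0.76, 0.90, 0.74 and 1.85 (log2 ratio 1.32 ± 0.16). Next came Slc11a1, a metal ion transporter of macrophages, with 0.61, 0.44, 0.63 and 1.43 (1.18 ± 0.22). Tmbim1, a membrane protein gene, followed with 0.90, 0.78, 0.65 and 1.41 (1.13 ± 0.18). The bin of Aamp and Pnkd had 0.69, 0.76, 0.81 and 1.55 (0.94 ± 0.14), and that of Arpc2, a subunit of the actin-nucleating Arp2/3 complex, had 0.90, 0.86, 0.98 and 1.58 (0.69 ± 0.16). All of these lie in the Arpc2 to Vil1 stretch, whose edges were set on this same difference, and none of their untreated values reached 1.

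In the other stretch, Rqcd1, a subunit of the CCR4-NOT deadenylase, had 1.02, 0.94, 0.98 and 1.23, and the bin of Zfp142 and Bcs1l had 1.00, 0.94, 0.83 and 1.16. Cyp27a1 had 0.96, 0.87, 0.81 and 0.96, a treated value that differed from that of 1A2 by less than its counting error. Prkag3, a muscle subunit of AMP-activated kinase, had 0.95, 0.82, 0.90 and 1.04 (log2 ratio 0.20 ± 0.11). On the Dnpep side, Speg, a kinase of striated muscle, had the largest ratio, with 0.73, 0.71, 0.71 and 1.46 (1.04 ± 0.17). Stk11ip had 0.88, 0.87, 0.75 and 1.32 (0.81 ± 0.15), Abcb6, a transporter gene, had 0.83, 0.86, 0.81 and 1.36 (0.75 ± 0.13), and Tuba4a, a tubulin gene, had 0.81, 0.74, 0.80 and 1.27 (0.67 ± 0.11). Des, which encodes the muscle filament desmin, had 0.60, 0.71, 0.75 and 1.08 (0.54 ± 0.15).

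With promoter bins of the opposite interval only, values were higher for several bins. Ctdsp1 had 0.99, 1.12, 0.89 and 2.65 ± 0.27 (106 reads in the treated library), Arpc2 had 1.20, 0.98, 1.03 and 2.18 ± 0.24 (84 reads), and Tmbim1 had 1.42, 1.00, 0.88 and 2.111 ± 0.25 (75 reads). Dnpep had 1.62, 1.43, 1.17 and 2.06 ± 0.22 (112 reads). These were the only promoter bins above 2 in the treated library. Rnf25 and Stk36 had 1.20, 1.24, 1.37 and 1.49 ± 0.12 (182 reads).

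Genes were split by where they are generally used, from general knowledge. Of 26 genes listed as broadly used, 12 start in the Rnf25 interval and 13 in the Dnpep interval, in 9 and 10 bins. Of 24 listed as restricted to certain tissues, 6 and 10 do. A bin that holds genes of both lists was counted as broad, which held for 1 bin in each interval (Usp37 with Plcd4, and Chpf with Tmem198), and left 5 and 8 bins as restricted. Pairs of bins with broadly used genes, 90 in number, had the highest contact, with 1.33 ± 0.07, 1.24 ± 0.06 and 1.22 ± 0.06 in 1A2, 1F4 and 1B1, and 1.89 ± 0.09 after degradation, on 459, 563, 511 and 552 reads. The 122 mixed pairs had 0.861, 0.784, 0.829 and 1.43 ± 0.07. The 40 pairs of restricted genes had 0.787, 0.656, 0.738 and 1.23 ± 0.12, on 116, 131, 120 and 142 reads. In each library the order was the same, with pairs of broadly used genes highest and pairs of restricted genes lowest. Counting errors were 0.05, 0.05, 0.05 and 0.07 for mixed pairs and 0.09, 0.07, 0.08 and 0.12 for restricted pairs. The step between these classes was thus not clear in any library.

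The log2 ratio of broad to restricted pairs was 0.76 ± 0.18, 0.91 ± 0.17 and 0.73 ± 0.17 in 1A2, 1F4 and 1B1, and 0.62 ± 0.16 after degradation. Without the bins that hold both kinds, an alternative chosen after seeing the data, it was 0.86, 1.01, 0.83 and 0.70. It was above 0 in 4 of 4 libraries, and the treated value did not lie outside the untreated ones by more than its error. Against 1B1, broad pairs changed by 0.63 ± 0.10, mixed pairs by 0.79 ± 0.11 and restricted pairs by 0.74 ± 0.21 on the log2 scale, which overlap within their errors.

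Focal contacts were sought as windows that stood out from their surroundings. Windows of 3 by 3 bins were called where the mean reached 1.5 times that of a surrounding ring (the square of 11 by 11 bins without its central 5 by 5), with at least 50 reads, in both 1A2 and 1F4, at a local maximum within 5 bins. Of 6885 windows, 210 had the reads to be called and 2 were. The number depended on the settings, with 19 calls at a minimum of 20 reads, 5 with windows of 5 by 5 bins and 4 at a ratio of 1.3. In single libraries 28 of 236 windows with 50 reads in 1A2, 50 of 448 in 1F4, 29 of 445 in 1B1 and 55 of 308 after degradation reached the ratio of 1.5. These counts cover the rectangle only. No share of such windows elsewhere in the map stands beside them, so they cannot be read as particular to these intervals. The first called window joined the bin of Zfp142 and Bcs1l (74630401 to 74636800) with that of Dnpep (75308801 to 75315200), 678.4 kb apart. Their promoter sequences are given above. The lines that chose it, 1A2 and 1F4, had ratios of window to ring of 2.72 ± 0.34 (84 reads) and 2.36 ± 0.26 (105 reads). The ratio was 1.64 ± 0.22 in 1B1 (75 reads) and 2.16 ± 0.24 after degradation (100 reads), in libraries that the choice did not use. Observed/expected in this window was 2.28, 2.22, 1.72 and 2.68 ± 0.30, which ranked 1 and 3 among the 6885 windows in 1A2 and 1F4, the lines that chose it, and 22 and 16 in 1B1 and the treated library. The log2 ratio of observed/expected between the treated library and 1B1 was 0.64 ± 0.25, and 0.23 ± 0.24 against 1A2. The contact was thus present in all 4 libraries, that with cohesin degraded included.

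The second window joined the bin between the starts of Bcs1l and Rnf25 (74636801 to 74643200) with that of Glb1l and Stk16 (75206401 to 75212800), 569.6 kb apart. Glb1l encodes a beta-galactosidase-like protein and Stk16 a kinase. Ratios were 1.92 ± 0.20 (96 reads) and 1.73 ± 0.16 (115 reads) in the lines that chose it, 1.76 ± 0.16 in 1B1 (125 reads) and 1.32 ± 0.15 after degradation (77 reads). Observed/expected went from 1.36 ± 0.12 in 1B1 to 1.16 ± 0.13, a log2 ratio of -0.23 ± 0.21 where the rectangle as a whole had 0.54. The direction of the windows thus differed, on read numbers that leave the second change near its counting error.

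The window of the Rnf25 and Stk36 bin with the Dnpep bin, 665.6 kb apart, overlaps the neighbourhood of the first called window. Its observed/expected was 1.54 ± 0.20, 1.596 ± 0.19, 1.36 ± 0.17 and 2.21 ± 0.27, on 74, 95, 79 and 95 reads. Its window/ring ratios were 1.61, 1.57, 1.20 and 1.76. The window around the bin of Rnf25 and Stk36 thus had above-average contact with the Dnpep side in each library. It shares bin pairs with the first called window, and the contact cannot be assigned to the Rnf25 promoter. Over all windows of the rectangle the median window/ring ratio was 0.976, 0.972, 0.981 and 0.974, so that the typical window did not stand out in any library.

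The tiles that changed most were named among those with at least 50 reads in 1B1 and the treated library together. The largest rise joined Gm216 with Des and Speg, 960.0 kb apart, with 0.65, 0.54, 0.61 and 2.15, on 36 reads in 1B1 and 78 after degradation (log2 ratio 1.83 ± 0.31). The tile of Slc11a1 and Ctdsp1 with a stretch between Dnpep and Des had 0.53, 0.45, 0.51 and 1.79 (1.81 ± 0.35). The tile of Gpbar1, Aamp, Pnkd and Tmbim1 with Accn4 (Asic4) had 0.53, 0.54, 0.37 and 1.27 (1.77 ± 0.37). Arpc2 with Chpf, Tmem198, Obsl1 and Inha had 0.86, 1.01, 0.64 and 2.15 (1.74 ± 0.35), and a tile inside Arpc2 with Ptprn and Resp18 had 0.67, 0.80, 0.52 and 1.63 (1.66 ± 0.34). All 5 lie in the Arpc2 to Vil1 stretch, whose edges were set on this same difference, and 896.0 to 1216 kb apart.

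Among tiles with at least 50 reads, the largest falls were small. The 2 tiles past 1.5-fold downward had fewer reads and were not named. Their log2 ratios were -0.77 (23 reads in 1B1 and 12 after degradation) and -0.72 (28 and 17 reads). Rnf25 and Stk36 with Chpf, Tmem198, Obsl1 and Inha had 0.71, 0.59, 0.80 and 0.57 (log2 ratio -0.47 ± 0.28), and Usp37 and Plcd4 with a stretch without coding starts had 0.90, 0.67, 0.96 and 0.70 (-0.45 ± 0.36). The tile of Zfp142 and Bcs1l with Atg9a, Glb1l, Stk16 and Tuba4a, which holds the centre of the second focal window, had 0.81, 0.92, 1.12 and 0.83 (-0.43 ± 0.19). Ttll4 with Ptprn and Resp18 had 1.04, 1.00, 1.24 and 0.95 (-0.39 ± 0.23), and a tile inside Arpc2 with the stretch between Dnpep and Des had 0.65, 0.70, 1.03 and 0.79 (-0.39 ± 0.38). In all 5 tiles 1B1 was the highest of the untreated libraries, and each fall was under 3 times its counting error.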

How the data were processed

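Tiled Capture-C libraries were processed by the authors with HiC-Pro 2.11.4 (submitters' processing notes) on mm9. Uniquely mapped valid pairs inside the targets were tallied in 6.4 kb bins and balanced with ICE, which gives all bins equal sums. The deposited values are this balanced contact signal, which sums to between 14999992 and 15000019 per library. The baits of the chromosome 1 region are not named in the sources used here. Bin coordinates match NCBIM37, and are given from 1.

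Whole reads were recovered from the deposited signal (all values within 0.05 of a whole number). Observed/expected, class means, tiles, windows and profiles were computed with Python 3.11.15, numpy 2.4.6, scipy 1.17.1 and pandas 2.3.3, after read recovery and the rectangle mean had been tested on simulated data. Groups came from the sample labels. As each group had 1 library, differences carry Poisson errors and no p-value. Named bins were Rnf25 and Dnpep, the 5 highest and 3 lowest bins per interval by the mean of 1A2 and 1F4, called windows, and the 5 tiles of largest rise and fall. Other promoter bins and the stretches of the Rnf25 interval were chosen after their values were seen. The intervals and gene lists were themselves chosen with earlier results of these data known. Alternatives covered the signal, the expected value, the untreated line, promoter definition, windows and tiles. Every deposited column with sample values was used.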

Additional observations from a re-analysis of the deposited data

How the results depend on the processing

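For 21 results 97 alternatives were computed, 70 planned and 27 chosen after seeing the data. Of these, 43 moved a value by less than its counting interval (1.5 times for counts), 52 moved it further and 2 reversed its sign, and the cause was not tested. Sets of 4 values follow the order 1A2, 1F4, 1B1, treated 1B1. Mean observed/expected was 0.690, 0.659, 0.713 and 1.11 from reads, 0.726, 0.675, 0.755 and 1.16 with an expected value that leaves out the rectangle, and 0.858, 0.819, 0.909 and 1.25 with that of chromosome 15. It was 0.720 in 1F4 without the last 5 bins, and 0.690 in 1F4 and 1.09 in the treated library as the median of tiles. The log2 ratio of the treated library to 1B1 was 0.64 from reads, 0.62 and 0.46 with those expected values, 0.59 and 0.68 with 1A2 and 1F4 in place of 1B1, and -0.11 in balanced signal, where it reversed against 1B1 but was 0.13 against 1A2 and 0.32 against 1F4. For the Arpc2 to Vil1 stretch it was 0.99 from reads, 0.80 with chromosome 15, 1.05 with 1F4 and 0.44 in balanced signal. For Rqcd1 to Prkag3 it was 0.36 from reads, 0.16 with chromosome 15, 0.28 with 1A2, 0.35 with 1F4 and, reversed, -0.42 in balanced signal. The log2 promoter preference was 0.93, 0.95, 0.78 and 0.98 from reads, 0.25 in 1A2, 0.17 in 1B1 and 0.40 in the treated library with widened promoter bins, and 0.35 in 1A2 with starts of every biotype. Its change was 0.082 with 1A2 in place of 1B1. Focal calls numbered 5 with windows of 5 by 5 bins, 19 with 20 reads and 4 at a ratio of 1.3, with median ratios of 1.18, 1.32 and 1.43 in 1B1 and 1.402, 1.39 and 1.39 in the treated library. Higher tiles numbered 30 of 81 with tiles of 9 by 9 bins (13.2% of 812 other tiles) and 39 of 272 at a fold of 2 (4.89% of 2452 other tiles), and lower tiles 1 against 1A2 and 0 against 1F4, with 9 by 9 bins and at a fold of 2. No paired analysis was possible because each group has 1 library. Single bin pairs held too few reads to be compared.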
